A study of Mus musculus with 6 samples.

Results

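Accessibility was examined at 10 genes of the NOTCH pathway: 3 receptors (Notch1, Notch2, Notch3), 4 ligands (Dll1, Dll3, Jag1, Jag2), the glycosyltransferase Lfng, which tunes how receptors respond to ligands, and the target genes Hes1 and Hey1. Their regions were the open chromatin regions, or peaks, whose gene in the authors' table is one of the 10, which gave 40 of 70494 peaks in mm10. Jag1 had 9, Dll1 and Hes1 6 each, Notch1 4, Notch3, Dll3 and Hey1 3 each, and Notch2, Jag2 and Lfng 2 each. NOTCH signalling lets a cell read a protein displayed on its neighbour. Delta and Jagged ligands on one cell bind receptors on the next, proteolysis frees the receptor's intracellular domain, and this domain joins the DNA-binding protein RBPJ to switch on HES and HEY repressors. The pathway is best known in the early embryo for segmentation of the somites and for left-right patterning, and later for cell fate choices in endoderm-derived organs such as pancreas and intestine.

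The study asked which open regions of definitive endoderm depend on the transcription factor OTX2. Cells of a single mouse line, 7H OTX2-dTAG-EGFP (BL6/129 hybrid), carry OTX2 fused to EGFP and to a tag that the degrader dTAG13 sends to the proteasome, so the controls carry the tagged protein too. Epiblast stem cells first received Activin A (40 ng/ml) with the GSK3 inhibitor CHIR (3 uM) during 16 h, and afterwards Activin A (100 ng/ml) with the BMP receptor inhibitor LDN (100 nM) during 24 h. The groups were 3 ATAC-seq libraries with DMSO, the solvent, and 3 with dTAG13, each agent added at the primitive streak stage for 24 h, with 50000 sorted live cells per library. Since the submitters describe the libraries within a group as technical replicates, the standard errors (SE) below measure the spread between such libraries, which may leave out that between cultures. One mean over the 6 libraries and one fold change per peak are used here, with no value per library, and depth is unknown. Because both groups have 3 libraries, the mean and the fold change together imply a level for each group, in normalized reads per library. These implied levels are approximate and carry no error of their own. All fold changes, SE and p-values below are those of the authors' deposited table, where an adjusted p under 0.05 counts as called, unless a recentred value is named. Log2 values are dTAG13 over DMSO, negative where DMSO was higher.

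The label of the cells was checked at promoters, taken as peaks within 1000 bases of a start site. All 8 definitive endoderm markers had a promoter peak in the lists called from the pooled DMSO and the pooled dTAG13 libraries, with summed implied levels of 428.4 and 358.7. Of 4 neural markers 3 were open in DMSO and 4 in dTAG13 (summed levels 62.5 and 92.6), of 4 mesoderm markers 2 and 1 (37.1 and 28.8, with no promoter peak at Mesp1 or Meox1), and of 4 epiblast markers 3 and 2 (74.2 and 35.8, with no promoter peak at Nanog). These sums cover 8 genes for endoderm and 4 for each other class, so their sizes cannot be compared between classes. Among the epiblast markers, Pou5f1 fell from 40.2 to 11.0 and Utf1 from 21.8 to 5.07, while Sox2 rose from 12.1 to 19.7. The part of other cell types in the results below was not tested.

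No peak of the 10 genes passed the authors' test. Of the 39 member peaks with an adjusted p, 0 were below 0.05, against 5.26% of all peaks tested (3.79% lower and 1.47% higher in dTAG13). The 40th, a weak peak at Jag1, has no adjusted p. With that peak taken as not called, the exact 95% binomial interval for 0 of 40, for counting error only, reaches 8.81%. The 0 calls therefore do not show a share below that of all peaks. Calls were also rarer within 1000 bases of a start site (510 of 22330 peaks with an adjusted p) than farther away (3128 of 46798). Of the 40 member peaks, 20 lay within that distance. An unadjusted p under 0.05 was found at 5 of the 40 peaks (12.5%), 4 of them lower and 1 higher in dTAG13, against 19.7% of all peaks. At a looser adjusted p of 0.1, which 9.1% of all peaks reached, 2 of the member peaks passed, one at Jag1 (lower in dTAG13) and one at Hey1 (higher). The median log2 fold change of the 40 peaks was -0.25, beside -0.18 over all peaks.

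**Figure D1:**
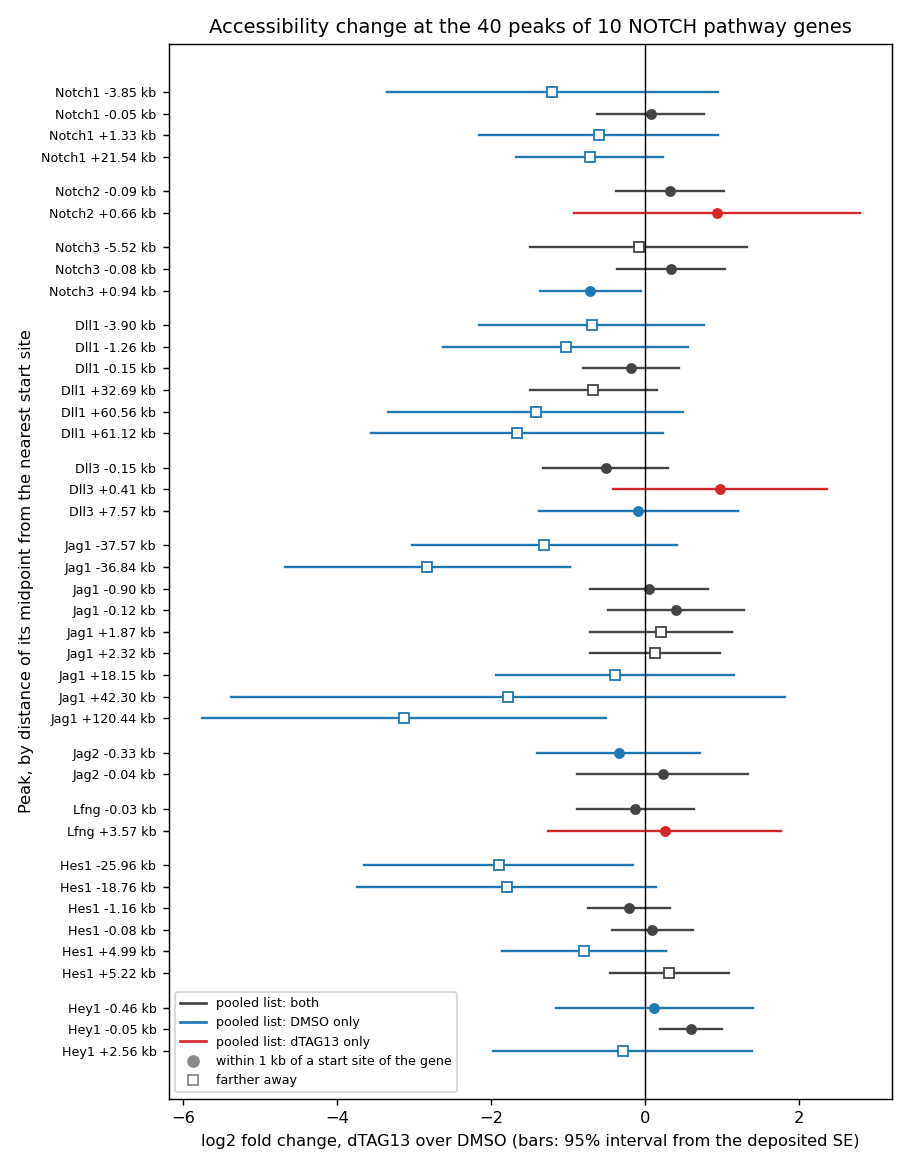
Log2 fold change of dTAG13 over DMSO (x axis) for each of the 40 peaks, grouped by gene and ordered by distance from the nearest start site of a protein-coding transcript (y axis); bars are 95% intervals from the deposited SE, colours give the pooled list that holds the peak. Bars of 35 of the 40 peaks cross 0, and the far peaks of Jag1, Dll1 and Hes1 lie to the left. Internal start sites count, so the Notch3 peak in exon 24 of 33, inside the gene, is labelled -5.52 kb.

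Promoter and distant peaks had different medians. The 19 peaks within 1000 bases of a start site of their own gene, called promoter peaks below, had a median log2 fold change of 0.09, and 7 of them were below 0. Among all 22428 peaks near a start site the median was 0.03. The 21 peaks farther away had a median of -0.80, and 18 of them were below 0, against a median of -0.38 and 63.2% below 0 for all peaks away from any start site. Beyond 10 kb from the start sites of the protein-coding transcripts, a distance chosen after the values were seen, all 11 member peaks were below 0, with a median of -1.66, and 10 of the 11 were in the DMSO list alone. Internal start sites counted, so the Notch3 peak in exon 24 of 33 (log2 -0.09, in both lists) was not among the 11. Of these 11, 4 lay within 10000 bases of a start site of another gene, so they are not matched by the 27206 peaks farther than that from any start site, of which 64.0% were below 0, with a median of -0.42.

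List membership, called from the same libraries, split along the same line. Both pooled lists held 17 of the 40 peaks (42.5%, beside 48.2% of all peaks), the DMSO list alone held 20 (50%, beside 40.1%) and the dTAG13 list alone 3 (7.5%, beside 11.8%). Of the 21 member peaks away from the start sites of their own gene, 16 were in the DMSO list alone (76.2%, beside 48.7% of all peaks away from any start site) and 0 in the dTAG13 list alone. Of all peaks in the DMSO list alone, 94.2% had a fold change below 0. The strongest peak of each of the 10 genes was in both lists.

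**Figure D2:**
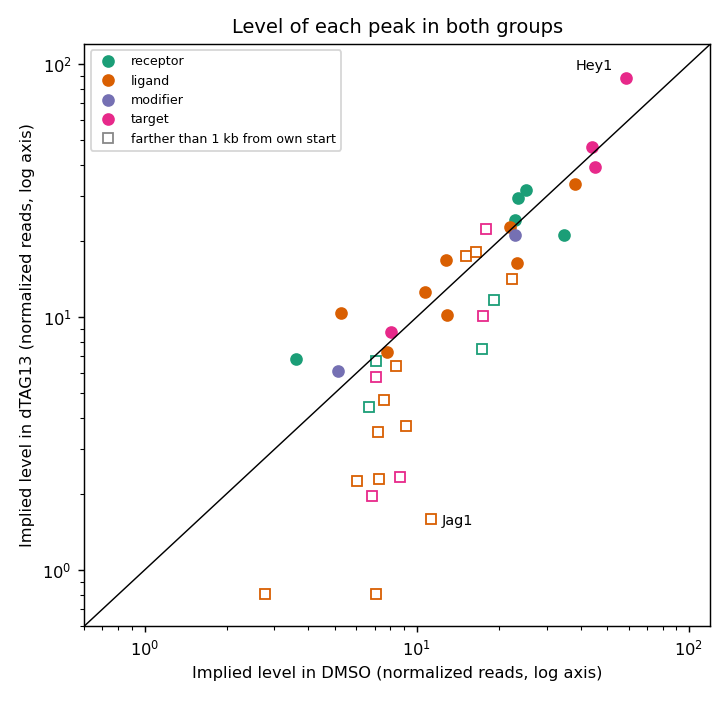
Implied level of each of the 40 peaks in DMSO (x axis) and dTAG13 (y axis), in normalized reads per library on log axes, coloured by the role of the gene; filled circles lie within 1 kb of a start site of their own gene, open squares farther away. Filled circles follow the line of equal levels, and open squares with fewer than 10 reads lie on or under it.

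Among the receptors, Notch1, which has broad roles in the embryo, had a promoter peak with implied levels of 23.1 in DMSO and 24.2 in dTAG13 (chromosome 2, 26503785 to 26503950, log2 fold change 0.07, SE 0.36). Its 95% interval ran from -0.63 to 0.77, so a change of less than 2-fold in either direction remains possible. The other 3 Notch1 peaks were in the DMSO list alone. The one in intron 4 of 33 (26482133 to 26482428) had levels of 19.3 and 11.7 (log2 -0.72, SE 0.49, adjusted p 0.427).

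Notch2 had a promoter peak (chromosome 3, 98013272 to 98013622) with levels of 23.6 in DMSO and 29.5 in dTAG13 (log2 0.32, SE 0.36, adjusted p 0.666). A small peak 655 bases past the start site appeared in the dTAG13 list alone, with levels of 3.59 and 6.85 (log2 0.93, SE 0.94). Neither difference was beyond its error.

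Notch3, a receptor best known from vascular smooth muscle, carried a pair of peaks at its start. The one just upstream (chromosome 17, 32166822 to 32167033) had levels of 25.2 in DMSO and 31.6 in dTAG13 (log2 0.33, SE 0.36). The one in an intron, 941 bases past the start (32165698 to 32166124), had levels of 34.7 and 21.2 (log2 -0.71, SE 0.34, unadjusted p 0.0343, adjusted p 0.209) and was in the DMSO list alone. The difference between these neighbours was not tested. A peak in a coding exon of Notch3 (exon 24 of 33) had levels of 7.09 and 6.68.

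Among the ligands, Dll1, which is expressed in presomitic mesoderm, had all 6 of its peaks below 0, and none passed the test. Its promoter peak (chromosome 17, 15375934 to 15376316) had levels of 38.2 in DMSO and 33.5 in dTAG13 (log2 -0.19, SE 0.32, adjusted p 0.790). A peak 32.7 kb past the start (15343138 to 15343439) had levels of 22.4 and 14.1 (log2 -0.67, SE 0.42). A peak 61.1 kb past the start had levels of 7.25 and 2.29 (log2 -1.66, SE 0.97, adjusted p 0.337), and its neighbour at 60.6 kb had 6.03 and 2.25 (log2 -1.42, SE 0.98). The gene whose start site lies nearest to these 3 far peaks was Gm7423, not Dll1.

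Dll3, a divergent ligand that does not activate receptors on neighbouring cells, had a promoter peak (chromosome 7, 28302284 to 28302499) with levels of 23.4 in DMSO and 16.4 in dTAG13 (log2 -0.51, SE 0.41, adjusted p 0.524). A second peak in an untranslated exon part, 409 bases past the start, had 5.29 and 10.3 (log2 0.97, SE 0.71, adjusted p 0.470) and was in the dTAG13 list alone. These signs differed, and both intervals held 0. Another, in a coding exon 188 bases from an internal start site, had 7.75 and 7.27 (log2 -0.09, SE 0.66).

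Jag1, the Jagged ligand mutated in Alagille syndrome of the bile ducts, had the most peaks of the 10 genes. Its 4 peaks from 896 bases upstream to 2.32 kb downstream of the start were in both lists, with log2 values of 0.04 to 0.39 and SE of 0.39 to 0.47. The strongest (chromosome 2, 137117459 to 137117621) had levels of 22.1 in DMSO and 22.7 in dTAG13. The other 5 peaks were in the DMSO list alone and had values from -0.39 to -3.13.

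The lowest adjusted p of all 40 peaks belonged to an intergenic peak 36.8 kb upstream of Jag1 (chr2:137153383-137153589), with levels of 11.3 in DMSO and 1.59 in dTAG13. Its log2 fold change was -2.83 (SE 0.94, unadjusted p 0.0027, adjusted p 0.0506), just outside the threshold of 0.05. Centring on the peaks found in both lists, under which 5.71% of all peaks were called, brought it to an adjusted p of 0.0402, and centring within deciles of GC content moved it to 0.147. A second peak 37.6 kb upstream had levels of 9.16 and 3.69 (log2 -1.31, SE 0.88, adjusted p 0.422). Both sequences are shown because the first is the peak nearest to the threshold and the second its neighbour; they are from GRCm38.p6 (mm10), plus strand, with capitals for the motifs found in them, ACAAAG of SOX factors in the first and AGATAA of GATA factors in the second.
Jag1 36.8 kb upstream: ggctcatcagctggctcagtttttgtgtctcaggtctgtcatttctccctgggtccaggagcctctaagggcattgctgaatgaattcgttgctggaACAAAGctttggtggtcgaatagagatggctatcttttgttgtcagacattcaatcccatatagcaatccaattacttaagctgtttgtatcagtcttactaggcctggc
Jag1 37.6 kb upstream: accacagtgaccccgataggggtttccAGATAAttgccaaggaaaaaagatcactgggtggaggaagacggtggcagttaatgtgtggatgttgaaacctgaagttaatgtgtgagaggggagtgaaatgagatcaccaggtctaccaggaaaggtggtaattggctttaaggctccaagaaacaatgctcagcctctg

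A further Jag1 peak with an unadjusted p under 0.05 (0.0193) lay 120.4 kb past the start, inside the neighbouring gene Slx4ip (chromosome 2, 136996132 to 136996286). Its levels were 7.07 and 0.807 (log2 -3.13, SE 1.34, adjusted p 0.149), so the dTAG13 side rested on about 1 read per library. Such a fold change is poorly determined.

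Jag2, the second Jagged ligand, had a pair of promoter peaks on chromosome 12. They had levels of 10.7 in DMSO and 12.6 in dTAG13 (112929759 to 112929882, log2 0.23, SE 0.57) and of 12.9 and 10.1 (112930047 to 112930173, log2 -0.34, SE 0.54). Neither showed a difference beyond its error.

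Lfng, a Fringe enzyme that is itself a cyclic NOTCH target in somite formation, had a promoter peak (chromosome 5, 140607154 to 140607417) with levels of 23.0 in DMSO and 21.02 in dTAG13 (log2 -0.13, SE 0.39, adjusted p 0.888). A second peak at an internal start site, 3.57 kb downstream, had 5.14 and 6.11 and was in the dTAG13 list alone (log2 0.25, SE 0.77). The upstream promoter is shown because it joins a HES and HEY E-box and an RBPJ core in one stretch (RefSeq, GRCm38.p6, chr5:140607091-140607290, plus strand, ending before the annotated transcript). Capitals mark ACAAAG of SOX factors, the RBPJ core TGGGAA once on each strand, and the E-box CACGTG, which overlaps the latter RBPJ core.
Lfng promoter: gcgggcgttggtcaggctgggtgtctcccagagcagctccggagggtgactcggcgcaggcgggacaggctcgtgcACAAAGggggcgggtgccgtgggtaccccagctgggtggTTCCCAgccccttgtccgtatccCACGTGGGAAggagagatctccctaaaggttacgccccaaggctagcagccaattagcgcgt

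Over the same 200 upstream bases, TGGGAA occurred in 17.9% and CACGTG in 4.34% of 32851 RefSeq promoters. Of the 10 genes, 8 were matched in that table, Hes1 and Hey1 being the other two. A match describes the sequence and does not show binding.

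Among the targets, Hes1, a repressor induced by NOTCH in many tissues, was open at both of its start regions. The peak at the start of the protein-coding transcript (chromosome 16, 30065106 to 30065412) had levels of 43.9 in DMSO and 46.8 in dTAG13 (log2 0.09, SE 0.27, adjusted p 0.888), with a 95% interval from -0.44 to 0.62. The upstream one (30064044 to 30064312) had 45.3 and 39.3 (log2 -0.21, SE 0.27). Per length, the peak at the protein-coding start had the highest mean of the strongest peaks of the 10 genes, 14.8 normalized reads per 100 bases. In dTAG13 alone the Hey1 peak was higher, with 16.3 against 15.3 at Hes1.

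The upstream distal peaks of Hes1 had few reads in both groups, and neither passed the test. A peak 25.96 kb upstream (30039331 to 30039436) had levels of 8.70 and 2.32 (log2 -1.90, SE 0.89, unadjusted p 0.0324, adjusted p 0.202), and one 18.8 kb upstream had 6.84 and 1.96 (log2 -1.80, SE 0.99, adjusted p 0.302). The first of these lay 95 bases from the start of the noncoding gene 9030404E10Rik. The neighbouring peaks 4.99 and 5.22 kb downstream had log2 values of -0.80 (SE 0.54) and 0.31 (SE 0.39).

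Hey1, the second target and like Hes1 a basic helix-loop-helix repressor, had the peak with the highest mean normalized count of the 40, which was also the longest at 541 bases, and the only one higher in dTAG13 at an unadjusted p under 0.05. Its promoter peak (chromosome 3, 8667040 to 8667580) had levels of 58.6 in DMSO and 88.3 in dTAG13, a log2 fold change of 0.59 (SE 0.20, 95% interval 0.19 to 0.99, unadjusted p 0.00376, adjusted p 0.0608). It did not pass the test as deposited. With the median of all peaks set to 0, under which 5.81% of all peaks were called, its log2 value was 0.77 and its adjusted p 0.00934. Centred on peaks of both lists, its adjusted p was 0.126. The smaller Hey1 peaks, 460 bases upstream and in a coding exon 2.56 kb downstream, had log2 values of 0.12 (SE 0.65) and -0.29 (SE 0.86).

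Strongest peaks of the 10 genes fell in a narrow range when counted per length. Means per 100 bases were 14.8 at Hes1, 14.2 at Notch1, 13.7 at Jag1, 13.6 at Hey1 and 13.4 at Notch3, followed by 9.39 at Jag2, 9.35 at Dll1, 9.20 at Dll3, 8.34 at Lfng and 7.56 at Notch2. With no value per library, neighbours in this order cannot be tested. The largest step was that between Notch3 and Jag2.

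How small a change the table could call depended on the mean count. Among the 1001 peaks closest in mean normalized count to the Hey1 promoter, 32 were called and the smallest called log2 value was 0.60 in size, next to 0.59 at Hey1. The same limit was 0.81 near Hes1, 0.89 near Dll1 and between 1.01 and 1.72 for the strongest peaks of the other 7 genes. A 95% interval that lay wholly between -1 and 1 was reached by 8 of the 40 peaks, 7 of them at promoters. At the other peaks a 2-fold change in at least one direction lay within the interval, so a missing call there does not show that accessibility stayed the same. At the 8 peaks, changes of less than 2-fold remain possible. The Hey1 promoter is among them, and its interval of 0.19 to 0.99 does not hold 0.

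Assigning each peak to a single gene can leave out regions inside one of the 10 genes. Counting every peak within 100 kb of a start site of the 10 genes, whatever its assigned gene, a rule chosen after the data had been seen, gave 159 peaks. Of the 157 with an adjusted p, 10 were called (6.37%, beside 5.26% of all peaks), 4 lower and 6 higher in dTAG13, and none of the 10 was assigned to a NOTCH pathway gene.

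**Figure D3:**
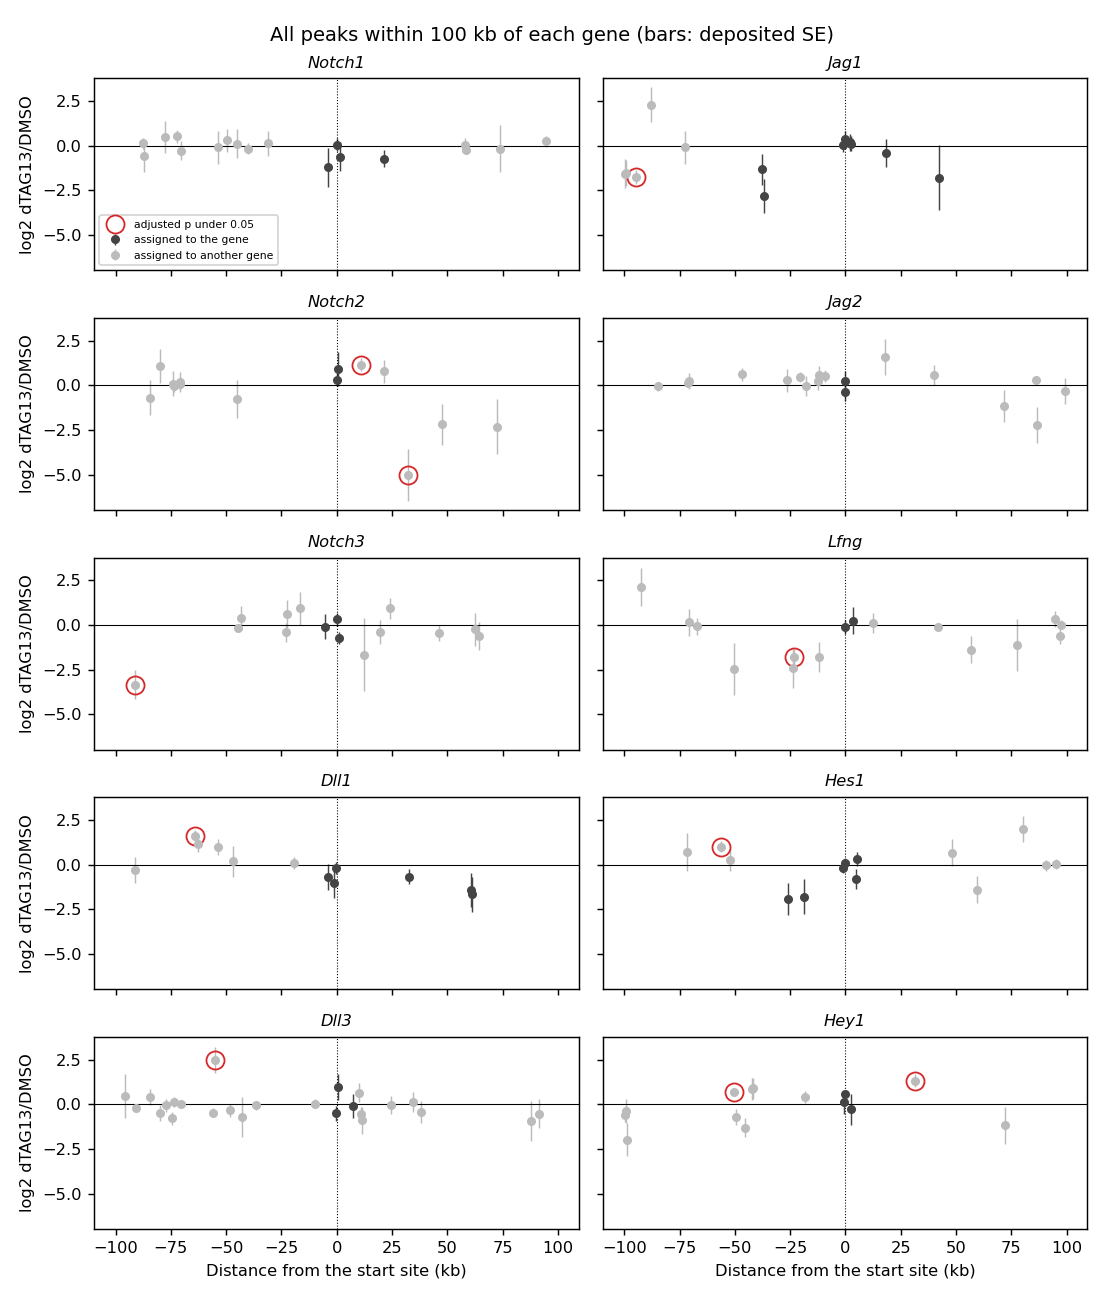
Log2 fold change of dTAG13 over DMSO (y axis, bars are the deposited SE) against distance from the nearest start site of a protein-coding transcript in kb (x axis, upstream negative) for the 159 peaks within 100 kb of the 10 genes; dark points are assigned to the gene, grey points to another gene, red rings mark an adjusted p under 0.05. Internal start sites count, so the Notch3 peak in exon 24 of 33 is drawn at -5.52 kb although it lies inside the gene. The 10 rings are all on grey points, and those near Notch2 lie to the right of its start, inside the gene.

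Notch2 held 2 of these calls within the first intron of one of its transcripts, both assigned in the table to Gm42819. The one 11.0 kb past the start rose in dTAG13, from 15.1 to 33.5 (log2 1.15, SE 0.37, adjusted p 0.0420), and it lost its call when centred on peaks of both lists (adjusted p 0.0642). The one 32.3 kb past the start fell, from 6.81 to 0.209 (log2 -5.03, SE 1.45, adjusted p 0.0200). The implied DMSO level of the latter was 2.27-fold a floor of 3 reads per library, with no error for that level. Their sequences are shown because no other of the 10 called peaks lay inside one of the genes; both are from GRCm38.p6, plus strand, and the first is the central 300 bases of its peak (chr3:98024415-98024714), the other the whole peak (chr3:98045752-98045866). Capitals mark GGAATG of TEAD factors in the first and GGATTA, the OTX consensus, in the second.
Notch2 intron, higher in dTAG13: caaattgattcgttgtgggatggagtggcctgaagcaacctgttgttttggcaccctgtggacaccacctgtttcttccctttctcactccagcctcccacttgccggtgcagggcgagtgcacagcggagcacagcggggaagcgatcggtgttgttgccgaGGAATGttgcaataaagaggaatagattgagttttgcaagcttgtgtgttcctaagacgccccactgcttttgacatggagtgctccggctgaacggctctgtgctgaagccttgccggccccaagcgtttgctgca
Notch2 intron, lower in dTAG13: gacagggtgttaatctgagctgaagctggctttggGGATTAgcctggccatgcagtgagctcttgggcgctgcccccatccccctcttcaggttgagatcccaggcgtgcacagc

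Upstream of Jag1, at 94.6 kb, a peak assigned to Gm28214 fell from 38.5 to 11.5 (log2 -1.74, SE 0.40, adjusted p 0.00209). It was no longer called with GC deciles centred (adjusted p 0.0704). The central 300 bases (chr2:137211139-137211438, GRCm38.p6, plus strand) are shown because this peak fell and carried the OTX consensus. Capitals mark, on either strand, that consensus, the TEAD, FOX and TCF/LEF motifs spelled out below, and the RBPJ core at both of its positions.
Upstream of Jag1, lower in dTAG13: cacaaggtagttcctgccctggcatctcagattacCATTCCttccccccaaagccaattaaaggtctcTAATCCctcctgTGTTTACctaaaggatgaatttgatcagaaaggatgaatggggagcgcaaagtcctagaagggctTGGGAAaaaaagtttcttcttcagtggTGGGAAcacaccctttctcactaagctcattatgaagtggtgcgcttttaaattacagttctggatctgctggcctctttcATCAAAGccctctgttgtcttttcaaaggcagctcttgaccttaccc

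Near Lfng, a peak 23.1 kb upstream assigned to Grifin fell from 24.9 to 7.07 (log2 -1.82, SE 0.50, adjusted p 0.0135) and also held GGATTA.

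Of the 6 that rose, 2 flanked Hey1. One lay 31.6 kb past its start and was assigned to Gm32496, with levels of 14.8 and 37.0 (log2 1.32, SE 0.35, adjusted p 0.0104). The other lay 50.3 kb upstream and was assigned to C230057A21Rik, with 59.5 and 94.9 (log2 0.67, SE 0.20, adjusted p 0.0266, and 0.0628 when centred on peaks of both lists). A peak 64.0 kb upstream of Dll1, assigned to Fam120b, rose from 17.2 to 52.8 (log2 1.62, SE 0.31, adjusted p 0.000116). Also higher were a peak 56.2 kb upstream of Hes1 at the promoter of 4632428C04Rik (log2 1.01, SE 0.32, adjusted p 0.0363, and 0.0602 when centred on peaks of both lists) and one 54.9 kb upstream of Dll3 (log2 2.49, SE 0.73, adjusted p 0.0223). Which gene any of these regions acts on was not tested.

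None of the 40 member peaks held the OTX consensus GGATTA within 100 bases of its midpoint on either strand. It was found in 8.85% of all peaks, 4.04% near start sites and 11.1% elsewhere. The exact 95% binomial interval of a count of 0 of 40, for counting error only, reaches 8.81%, about the share of all peaks. The letters of GGATTA reversed, ATTAGG, a control of the same composition, occurred in 1 member peak (2.50%) and in 7.09% of all peaks. The RBPJ core TGGGAA occurred in 8 member peaks (20%), of 6 genes, and in 18.6% of all peaks, and CACGTG in 3 (7.5%) and 3.79%. Of the member peaks 50% lay near a start site of any gene, beside 31.8% of all peaks, and motif shares differ between these classes. CACGTG was in 2 of the 19 promoter peaks, beside 6.66% of all peaks near start sites. Elsewhere it was in 1 of 21, beside 2.45%. Both Hes1 start regions and the upstream Notch3 peak were among those with TGGGAA.

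Of the remaining motifs, ACAAAG (SOX) was found in 9 member peaks (22.5%, beside 16.4% of all), GGAATG (TEAD) in 4 (10%, beside 11.6%), and the GATA factor motif AGATAA in 2 (5.00%, beside 15.7%). AGATAA was in 0 of the 19 promoter peaks, beside 5.01% of all peaks near start sites, and in 2 of the 21 others, beside 20.7%. TGTTTAC (FOX) occurred in 2 (5.00%, beside 5.34%), AGGTGTGA (T-box) in 1, at the Dll3 promoter (2.50%, beside 1.71%), and CTTTGAT (TCF/LEF) in 0 (beside 2.85%). The RBPJ core and the E-box can share letters, as at Lfng. Median GC content was 63.0% in the member peaks and 54.8% over all peaks. A motif missing from a window says only that these letters are not in it.

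**Figure D4:**
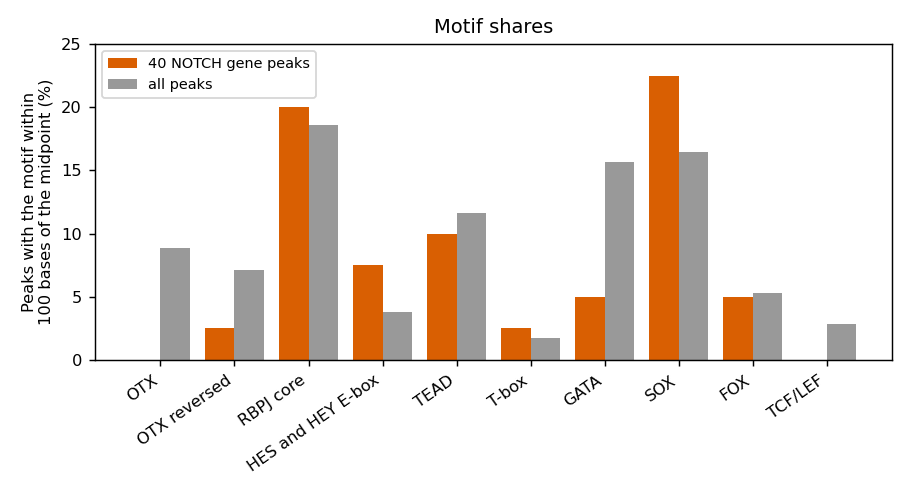
Share of peaks with each of 10 motifs within 100 bases of the midpoint on either strand (y axis, percent) for the 40 peaks of the NOTCH pathway genes and for all peaks. The bars for OTX and TCF/LEF are at 0 in the former, and those for the RBPJ core are close, at 20% and 18.6%.

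The rest of the pathway was taken from a list of 48 genes, from ligands such as Dll4 to the RBPJ complex and further HES and HEY genes. Peaks were assigned to 46 of them, Cir1 and Hes2 being the other two. Of their 175 peaks with an adjusted p, 4 were called, 3 lower and 1 higher in dTAG13, against 5.26% of all peaks (3.79% lower and 1.47% higher). With GC deciles centred, 5 were called, 2 lower and 3 higher. The median log2 fold change of the 179 peaks was -0.13. None of the 12 peaks of Rbpj, the DNA-binding partner of all NOTCH receptors, was called, and its strongest had a log2 value of 0.36 (SE 0.27, adjusted p 0.492).

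The call with the lowest adjusted p was at Dtx1, an E3 ligase that acts on NOTCH receptors, where a peak in an intron beside an internal start site rose from 7.10 to 29.4 (chromosome 5, 120706646 to 120706886, log2 2.05, SE 0.46, adjusted p 0.00153). A peak 5.93 kb past the start of Myc, a NOTCH target in T-cell leukaemia, fell from 24.4 to 3.20 (chromosome 15, 61993202 to 61993510, log2 -2.93, SE 0.67, adjusted p 0.00215). A peak in intron 4 of Mfng, a Fringe paralogue of Lfng, fell from 23.4 to 5.37 (chromosome 15, 78763160 to 78763474, log2 -2.12, SE 0.55, adjusted p 0.00746). At Adam10, the protease that makes the first cut of an activated receptor, a weak intronic peak (chromosome 9, 70728656 to 70728809) fell from 7.38 to 0.209 (adjusted p 0.0168). Its implied DMSO level was 2.46-fold the floor of 3 reads per library, with no error for that level. Adam10, too, was no longer called with GC deciles centred (adjusted p 0.0603).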

How the data were processed

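The authors' deposited table gives, per peak, a mean of normalized counts (a signal over all 6 libraries), a log2 fold change with its SE, a score, a p-value and an adjusted p-value, under the column names of DESeq2, per the file headers. The pooled peak lists, called with MACS2 on mm10 for each group as a whole, were deposited by the authors as positions only, per the file names. The submitters' processing notes also name fastp, Bowtie2, featureCounts, HOMER 4.11 and ChIPseeker, and read filters or shifts of read ends are not given in the sources used here. The adjusted p was recomputed by Benjamini-Hochberg over 69128 peaks, with a largest difference of 3.96e-07. Another 1366 peaks (mean normalized count up to 1.87) have none.

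Start sites came from GENCODE mouse release 21, distances being taken to those of protein-coding transcripts, and sequences from GRCm38.p6. A peak counted as in a pooled list when they shared at least 1 base. Motifs were searched on both strands within 100 bases of the midpoint. Intervals at 95% are the log2 fold change with normal bounds from its SE. Scripts ran under Python 3.11.15 with scipy 1.17.1, numpy 2.4.6 and pandas 2.3.3. On simulated data, with changes planted at many times the SE of their peak, 200 of 200 changed peaks were called. There were 14 other calls among 70294, and 200 of 200 planted motifs were found. Changes so large check the code only and do not show how often smaller ones would be called.

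The text names the strongest, promoter and lowest-p peaks of the 10 genes and the called peaks of the 48 further pathway genes. Other peaks, those near the genes included, were chosen after their values were seen. Of the called peaks near the genes, 1 is counted but not reported here. Members and lists were chosen with earlier results of these data known. Alternatives covered the centring of fold changes, weak peaks, thresholds, gene assignment, overlap and motif window.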

Additional observations from a re-analysis of the deposited data

Results flagged for a closer look

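A further pair of columns in the authors' deposited table, headed DEGdown and DEGup with a rank of 10, is used by no comparison above. How these marks were made is not given in the sources used here. Among the 10 NOTCH pathway genes, 3 (30%) carried the mark for up, namely Notch2, Dll3 and Hey1, beside 429 of 26796 genes with a peak (1.60%), and 0 carried the mark for down, beside 1.38%. The strongest peaks of these 3 genes had log2 fold changes of 0.32 (SE 0.36) at Notch2, -0.51 (SE 0.41) at Dll3 and 0.59 (SE 0.20) at Hey1 in the authors' deposited table, none of them called. Whether the marks and accessibility are related was not tested.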

How the results depend on the processing

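The count of 0 called peaks at the 10 genes was also 0 with GC deciles centred, without the filter on weak peaks, when only peaks with a mean of 10 or more normalized reads entered, when calls also needed a 2-fold change, and with genes assigned by the nearest GENCODE start site. It became 1 with the median of all peaks (-0.18) at 0 (Hey1), 1 with the median of peaks in both lists (0.09) at 0 (Jag1), 2 at an adjusted p under 0.1, and 10 over all peaks within 100 kb, the last chosen after seeing the data. The 4 calls at the other pathway genes became 8 at an adjusted p under 0.1 and were 3 to 5 otherwise, with 2 lower and 3 higher when GC deciles were centred. Among the 39 member peaks with an adjusted p, signs of values near 0 changed at the coding exon peaks of Notch3 (to 0.094) and Dll3 (to 0.0885) and the Lfng promoter (to 0.049) with the median of all peaks at 0, and at promoter peaks of Notch1 (-0.0228), Jag1 (-0.0495) and Hes1 (-0.001) with the median of peaks in both lists at 0. Within 50 bases of the midpoint, the member peaks with TGGGAA numbered 3, those with ACAAAG 4 and those with ATTAGG 0, and over whole peaks those with ATTAGG numbered 0. Requiring an overlap of 50% left 17 peaks in both lists. No paired analysis was possible because only a summary per peak was used, without values per library, and no library could be left out for the same reason. Depth per library is unknown, and 7 of the 40 peaks had an implied level under 3 reads in dTAG13.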

Other observations

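The Notch1 peak 3.85 kb upstream of the main start site (chromosome 2, 26507577 to 26507772), inside an intron of a longer Notch1 transcript, had an SE of 1.10 on a log2 fold change of -1.21 in the authors' deposited table. The median SE of the 1001 peaks closest to it in mean normalized count was 0.53, and 98.3% of them had a smaller one. Without values per library, it cannot be told whether a single library differed there or all of them varied. The opposite extreme was the Jag1 peak 123 bases upstream of its start, whose SE of 0.45 was larger than those of only 0.30% of like peaks.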
